A study of Mus musculus with 2 samples.

Results

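Polycomb group proteins keep developmental genes silent by writing marks on histones. The genes described are 10 that encode subunits of the 2 Polycomb repressive complexes, chosen by name as the probes Ezh2, Ezh1, Eed, Suz12, Jarid2, Mtf2, Rnf2, Ring1, Pcgf6 and Cbx7. All 10 were found among the 26127 probes with a deposited value, 1 probe each. RNA was sequenced from mouse embryonic stem (ES) cells that were wild-type (WT; H3f3a+/+; H3f3b+/+) or carried 1 copy of histone H3.3 with glycine 34 changed to arginine (G34R; H3f3a+/G34R; H3f3b+/+). In G34R cells a G34R minigene coding sequence stood under the endogenous promoter of H3f3a, 1 of the 2 H3.3 genes, after Cre-recombinase had removed a WT minigene and a neo cassette. Both lines were of the 129S1/SvImJ strain and were grown in serum with leukaemia inhibitory factor. Each line gave 1 library, so no value has a replicate and nothing was tested. What the genotype did cannot be told apart from what else may set the targeted line, its culture or its library apart from the WT one.

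Polycomb repressive complex 2 (PRC2) methylates lysine 27 of histone H3 through EZH2 or EZH1, which work only together with EED and SUZ12. Accessory subunits such as JARID2 and the Polycomb-like protein MTF2 bind SUZ12 and help to bring PRC2 to CpG islands. PRC1 ubiquitinates histone H2A (the H2AK119 mark) through RING1B (the product of Rnf2) or RING1A (Ring1), paired with 1 of several PCGF proteins. Canonical PRC1 also holds a chromobox protein such as CBX7, which binds methylated lysine 27, whereas variant forms such as that of PCGF6 reach DNA by other partners. In ES cells both complexes occupy the promoters of many developmental regulators that are not yet expressed.

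The levels are RPKM, in which reads are divided by the length of the transcript and by the size of the library. From steps in the RPKM of short genes the libraries were estimated to hold 88 M reads for WT cells and 72.55 M for G34R cells, so that 1 read on a transcript of 1 kb was worth 0.0114 and 0.0138 RPKM. The 10 subunits rested on an estimated 317 to 26289 reads per gene and library. At least 1 RPKM in 1 library was reached by 10728 genes, which form the background below. Their median log2 (G34R/WT RPKM) was -0.05, with an interquartile range of -0.35 to 0.25. H3f3a, the targeted gene, had 8.17 RPKM in WT and 4.89 RPKM in G34R cells, a measure that does not separate the alleles. All 10 ES cell markers passed 1 RPKM in both libraries, among them Pou5f1 (194.34 and 189.46 RPKM in WT and G34R cells) and Sox2 (73.83 and 75.05 RPKM). Of these markers 6 were lower and 4 higher in G34R cells, and 2 were more than 2-fold lower, Zfp42 (180.30 and 16.40 RPKM) and Nanog (127.07 and 52.24 RPKM). Klf4 (25.14 and 43.71 RPKM) and Utf1 (61.89 and 108.56 RPKM) were more than 1.5-fold higher. Summed levels of markers of other cell types went from 13.95 to 25.26 RPKM for primitive endoderm (8 of 8 genes higher) and from 0.90 to 2.74 RPKM for mesoderm (6 of 8 higher, and Foxf1a at 0 in WT cells). They went from 37.10 to 27.68 RPKM for neuroectoderm (3 of 6 higher) and from 44.34 to 19.69 RPKM for fibroblasts (1 of 8 higher, and Postn at 0 in both). Single genes carry much of each sum. Lama1 (primitive endoderm) had 11.56 and 20.26 RPKM, and Eomes (mesoderm) had 0.43 and 1.88 RPKM. Vim (fibroblasts) had 42.50 and 18.50 RPKM. Of the neuroectoderm markers, Tubb3 had 35.58 and 8.36 RPKM and Olig2 0.03 and 17.71 RPKM. At least 1 RPKM in 1 library was reached by 3 primitive endoderm markers and 1 mesoderm marker. The part of these shifts in the values below was not tested, and in bulk RNA fewer cells with a transcript and less transcript per cell cannot be told apart.

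Of the 10 subunits, 9 lay within 1.5-fold between WT and G34R cells. Mtf2, the most abundant of them in WT cells, was the exception at 42.23 RPKM in WT and 20.86 RPKM in G34R cells. It was the only subunit more than 2-fold lower, against 6.42% of the background genes, and no subunit was more than 2-fold higher, against 4.09%. The 2-fold call of Mtf2 held with the deposited RPKM and was lost under 2 other scalings and with 1 added to each RPKM. More than 1.5-fold in either direction was likewise reached by 1 subunit, Mtf2, where the background had 25.4%. G34R cells had lower RPKM for 7 subunits, beside 54.8% of the background, and higher RPKM for 3, beside 45%. The counts by direction are near the background, and the median log2 ratio of the 10 genes, -0.09, was close to that of all genes. The median size of the log2 ratio without its sign was 0.149 for the subunits and 0.310 for the background. The background was not matched to the subunits in abundance. Among the genes closest in mean RPKM, the scaled median absolute deviation of the log2 ratio was 0.349 for Suz12 (28.90 and 27.47 RPKM). It was 0.628 for Ring1 (1.11 and 1.43 RPKM). The 0.310 and the 25.4% are therefore no like-for-like yardstick, and whether the subunits differed less than genes of their abundance was not tested.

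**Figure D1:**
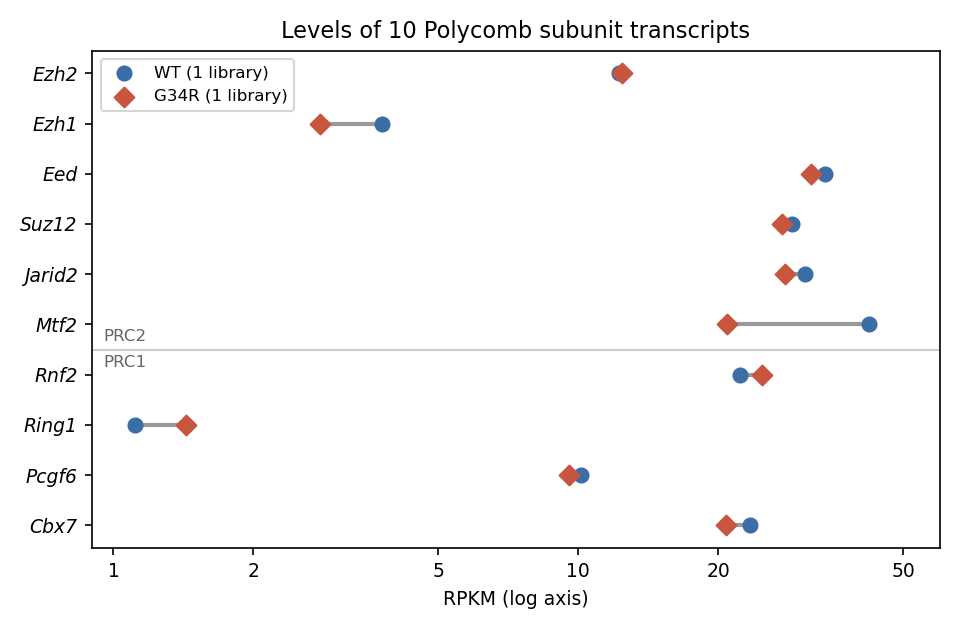
RPKM (log axis) of the 10 subunit genes in the WT library (circles) and the G34R library (diamonds), with PRC2 genes above the line and PRC1 genes below it. Mtf2 runs from 42.23 to 20.86 RPKM, while the levels of the other 9 genes differ by less than 1.5-fold.

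Ezh2 and Ezh1 encode the alternative methyltransferases of PRC2, EZH2 being the main one of dividing cells and EZH1 being common in resting cells. On mm9 Ezh2 lies at chr6:47480273-47545340 and Ezh1 at chr11:101052429-101087777, both on the minus strand (ENSMUSG00000029687 and ENSMUSG00000006920). Ezh2 had 12.23 RPKM in WT and 12.44 RPKM in G34R cells. Its log2 (G34R/WT RPKM) was 0.02, with a 95% counting interval of -0.03 to 0.08 that holds 0. The interval comes from estimated reads and covers counting error only, so it says nothing of the spread between cultures or of the scaling of the libraries. Ezh1 had 3.78 RPKM in WT and 2.78 RPKM in G34R cells, which is a log2 ratio of -0.44 (counting interval -0.54 to -0.35). Ezh1 was thus lower by more than counting error. Of the 500 genes closest to Ezh1 by mean RPKM, 43% lay at least as far from their median, compared with 86.6% for Ezh2. This share is a yardstick of how genes of like abundance differed between the libraries, and it holds real differences as well as noise.

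The 2 EZH genes are similar in sequence, which matters because the reads were 50 bases long. The closest stretch of that length within 1 exon of their coding sequences follows, with the bases that differ in capitals. Both are read 5′ to 3′ on the minus strand of mm9, at chr6:47480550-47480599 in exon 20 of 20 of Ezh2 and chr11:101054263-101054312 in exon 21 of 21 of Ezh1.
Ezh2: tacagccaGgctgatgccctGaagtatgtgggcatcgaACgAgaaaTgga
Ezh1: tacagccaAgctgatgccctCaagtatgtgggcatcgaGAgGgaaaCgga
Even here 6 bases differ and the longest identical run is 17 bases. A read without errors from within 1 coding exon therefore fits only 1 of the 2 genes. Stretches across exon junctions were not compared for any of the genes. Across all exons, 0.0767% of the 50-base stretches of Ezh2 and 0.156% of those of Ezh1 recur elsewhere in the genome. Within exons, none of the 10 genes shared a 50-base stretch with another of them, and Suz12 had the largest repeated share of its own, 3.20%.

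Ezh2 held 76.4% of the summed RPKM of both EZH genes in WT cells (16.01 RPKM), and in G34R cells it held 81.7% (15.22 RPKM). The higher share in G34R cells came with the lower Ezh1 value, as the deposited Ezh2 levels differed by less than counting error. The log2 ratio of Ezh2 depended on scaling, at 0.08 after centring on the median gene and -0.04 with matched upper quartiles. Ezh2 stood 3.24-fold above Ezh1 in WT cells and 4.47-fold above it in G34R cells. The size of this gap depends on the transcript length behind the RPKM. The merged exons of all annotated Ezh2 transcripts span 6197 bases, whereas those of its protein coding transcripts span 2825 bases. With the shorter lengths Ezh2 came to 26.8 and 27.3 RPKM, and its ratio to Ezh1 to 5.80 and 8.02. The log2 ratio of a gene between the libraries does not depend on its length.

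EED binds methylated lysine 27 and stimulates the enzyme, and SUZ12 is the platform on which the other subunits assemble. Eed lies on the minus strand at chr7:97103166-97129493 (ENSMUSG00000030619) and Suz12 on the plus strand at chr11:79806608-79847625 (ENSMUSG00000017548). Eed had 34 RPKM in WT and 31.71 RPKM in G34R cells, which is a log2 ratio of -0.10 (counting interval -0.15 to -0.05). Suz12 had 28.90 and 27.47 RPKM, a log2 ratio of -0.07 (-0.11 to -0.04). Both were slightly lower in G34R cells, and of genes of like abundance 95.4% for Eed and 94.8% for Suz12 lay at least as far from their median. The ratio of Eed to Suz12 was 1.18 in WT and 1.15 in G34R cells, and the sum of Ezh2, Eed and Suz12 was 75.13 and 71.62 RPKM. The 3 genes of the core complex therefore kept nearly the same proportions in both libraries. Against Ezh2, Eed was 2.78-fold higher in WT cells and 2.55-fold higher in G34R cells, but 1.36-fold and 1.25-fold with coding transcript lengths. Suz12 was 2.36-fold and 2.21-fold above Ezh2 as deposited, and 1.22-fold and 1.14-fold with those lengths.

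Rbbp4 and Rbbp7 encode the histone chaperones that complete the PRC2 core, and also belong to other chromatin complexes. Rbbp4 had 26.28 RPKM in WT and 26.87 RPKM in G34R cells, and Rbbp7 had 48.48 and 49.88 RPKM. Rbbp7 made up 64.8% of their sum in WT cells and 65.0% in G34R cells. With coding transcript lengths it made up 49.1% and 49.2%, so the order of the 2 genes is not settled by these data, whereas the shares hardly differed between the lines by either length.

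**Figure D2:**
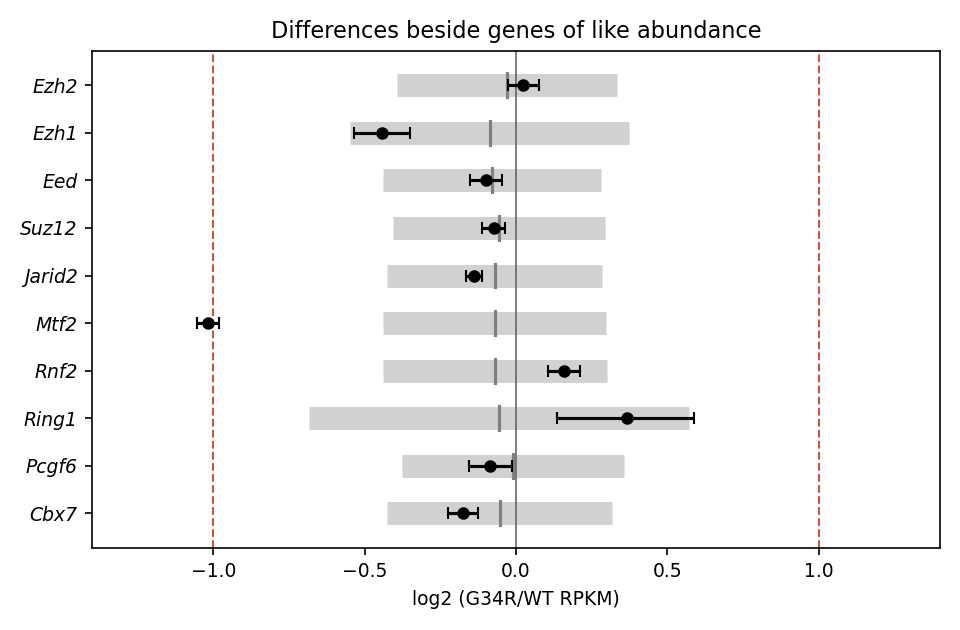
log2 (G34R/WT RPKM) of each subunit (points) with its 95% counting interval (bars), over the median of its 500 closest genes by mean RPKM (grey tick) and 1 scaled median absolute deviation either side of it (grey band). Dashed lines mark 2-fold, and Mtf2 alone lies outside its band, at -1.02.

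Mtf2 encodes a Polycomb-like protein whose winged-helix domain binds unmethylated CpG-rich DNA and whose Tudor domain reads methylated histone H3. It lies on the plus strand of chromosome 5 (mm9, chr5:108494693-108538023; ENSMUSG00000029267). Mtf2 had 42.23 RPKM in WT and 20.86 RPKM in G34R cells, from about 19559 and 7965 reads. The level in WT cells was 2.02-fold that in G34R cells, a log2 ratio of -1.02 (counting interval -1.06 to -0.98). Set against the 500 closest genes by mean RPKM, whose median was -0.07, it lay at -2.57 on a scale of their scatter (the scaled median absolute deviation), and 6.8% of those genes lay as far out (7.0% of the nearest 200 and 7.2% of the nearest 1000). Mtf2 sat so near the 2-fold line that small changes of scale took it across. Its log2 ratio was -0.97 after scaling both libraries to the same RPKM sum, -0.96 after centring on the median gene and -0.98 after adding 1 to each RPKM. With the upper quartiles matched it was -1.08.

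None of the background genes near Mtf2 was lower by as much. Within 500 kb of Mtf2, 13 background genes had a median log2 ratio of -0.04, between -0.53 and 0.51, and 0 of them were more than 2-fold lower. Tmed5, which overlaps Mtf2 on the opposite strand, had the lowest ratio of them, with 1.95 RPKM in WT and 1.35 RPKM in G34R cells (log2 ratio -0.53). The libraries and their counting were stranded. Of the 50-base stretches in Mtf2 exons, 1.34% recur in the genome.

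JARID2 is a DNA-binding partner of PRC2 that also stimulates its activity, and its gene lies on the plus strand at chr13:44824843-45017012 (ENSMUSG00000038518). Jarid2 had 30.75 RPKM in WT and 27.91 RPKM in G34R cells, from about 26289 and 19672 reads, the deepest count of the 10 genes. Its log2 ratio was -0.14 (counting interval -0.17 to -0.11), and 82.4% of genes of like abundance lay as far out. Jarid2 and Mtf2 therefore changed places: Mtf2 was 1.37-fold above Jarid2 in WT cells and at 0.747 of its level in G34R cells. Relative to Suz12, which both proteins bind, Mtf2 went from 1.46 to 0.759. By RPKM Mtf2 was the first of the 10 genes in WT and the fifth in G34R cells, below Eed, Jarid2, Suz12 and Rnf2 and level with Cbx7 (20.76 RPKM). With coding transcript lengths it was again the first in WT cells, and in G34R cells it then stood below Ezh2 as well (23.8 against 27.3 RPKM). The bottom of the order, with Pcgf6, Ezh1 and Ring1 in that sequence, was the same in both libraries.

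The paralogues of Mtf2 are Phf1 and Phf19, which encode the other Polycomb-like proteins. Phf19 had 0.94 RPKM in WT and 2.59 RPKM in G34R cells, which is a log2 ratio of 1.46 (counting interval 1.29 to 1.63), from about 417 and 946 reads. Phf1 had 0.69 and 1.06 RPKM, a log2 ratio of 0.62 (0.31 to 0.95). Both were therefore higher in G34R cells where Mtf2 was lower. Both reached 1 RPKM in G34R cells only, so they passed the filter through the library where they were higher. Of genes of like abundance, 5.8% lay as far out as Phf19 and 43.4% as far out as Phf1. Mtf2 still provided most of their sum, 96.3% of 43.86 RPKM in WT cells and 85.1% of 24.51 RPKM in G34R cells. Phf19 provided 2.14% and 10.6%, and Phf1 1.57% and 4.32%. The sum of the Polycomb-like genes was thus lower in G34R cells, and a link between the values of these genes was not tested. Mtf2 was 44.9-fold above Phf19 in WT cells and 8.05-fold above it in G34R cells.

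Reads of Mtf2 and Phf19 can be told apart. Their most similar 50-base coding stretch follows with the differing bases in capitals, read 5′ to 3′ on the plus strand at chr5:108510183-108510232 for Mtf2 and on the minus strand at chr2:34766689-34766738 for Phf19 (mm9), in exon 3 of 15 in both genes.
Mtf2: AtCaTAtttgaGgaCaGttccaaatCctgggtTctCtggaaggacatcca
Phf19: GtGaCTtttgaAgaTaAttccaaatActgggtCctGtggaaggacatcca
They differ at 10 bases and their longest identical run is 14 bases.

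**Figure D3:**
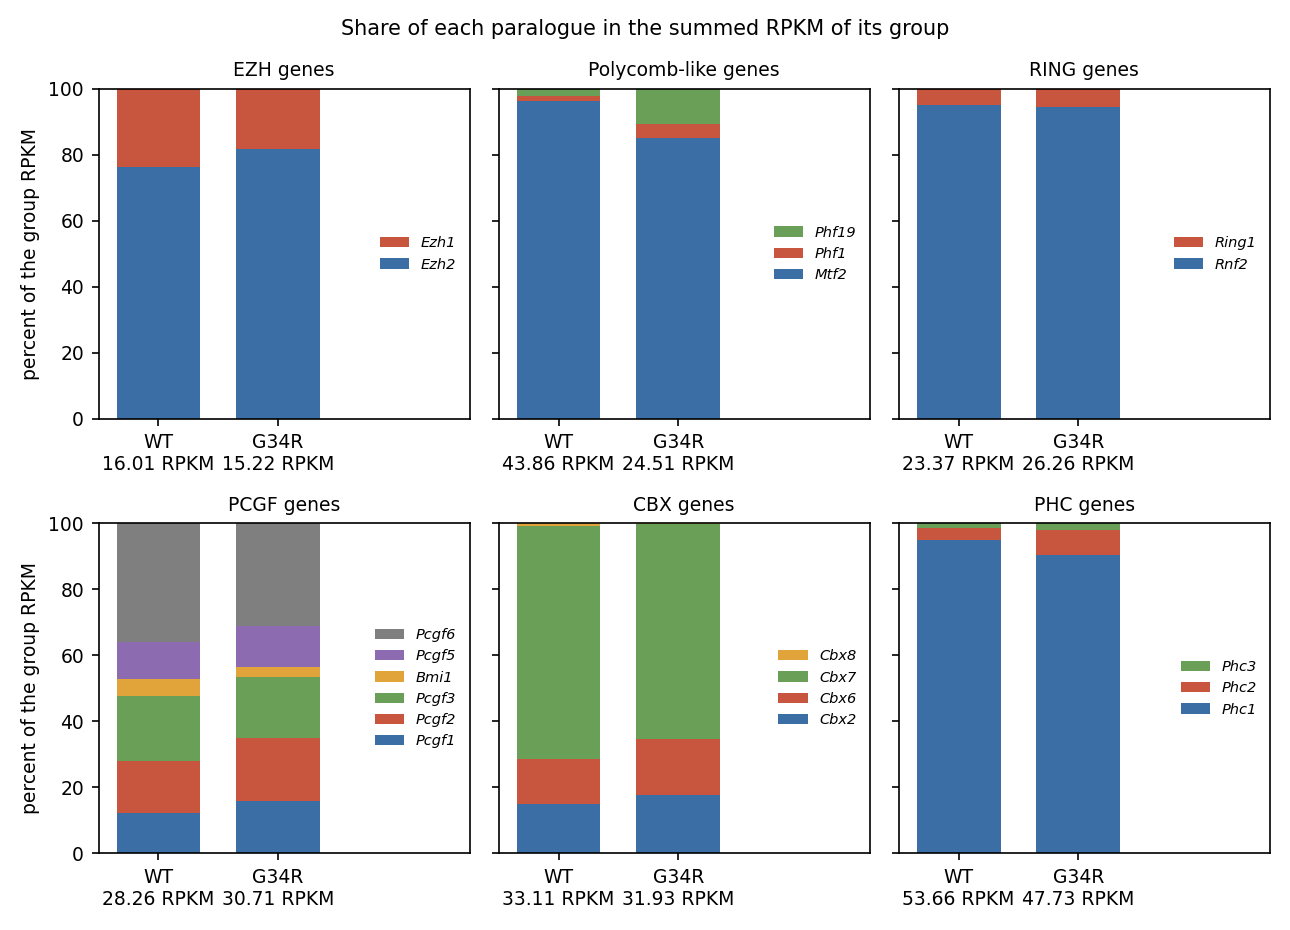
Percent of the summed RPKM of 6 groups of paralogues that each gene held in the WT and G34R libraries, with the sum under each bar. The Polycomb-like group, where Mtf2 goes from 96.3% to 85.1%, is also the group whose sum differs most, at 43.86 and 24.51 RPKM.

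The SUZ12-binding accessory genes are Jarid2, Aebp2, Mtf2, Phf1, Phf19 and Epop, and their sum was 121.88 RPKM in WT and 86.02 RPKM in G34R cells. Mtf2 held 34.6% of it in WT and 24.3% in G34R cells, and Jarid2 25.2% and 32.4%. Epop, which links PRC2 to elongin, had 41.52 and 28.17 RPKM (log2 ratio -0.56), and 22.6% of genes of like abundance lay as far out. Its share of the sum was 34.1% in WT cells and 32.7% in G34R cells. Aebp2, a zinc-finger subunit that forms a complex with JARID2, had 5.75 and 5.43 RPKM. By deposited RPKM Mtf2 and Epop thus stood above Jarid2 in WT cells, and Epop and Jarid2 above Mtf2 in G34R cells. With coding transcript lengths, which leave Epop as it is, Jarid2 came to 44.4 and 40.3 RPKM and stood above Epop in both libraries, and Mtf2 came to 48.1 and 23.8 RPKM.

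Rnf2 and Ring1 encode the alternative ubiquitin ligases at the heart of PRC1. Both lie on the minus strand, Rnf2 at chr1:153316536-153347953 (ENSMUSG00000026484) and Ring1 at chr17:34157737-34161625 (ENSMUSG00000024325). Rnf2 had 22.26 RPKM in WT and 24.83 RPKM in G34R cells, which is a log2 ratio of 0.16 (counting interval 0.10 to 0.21). Ring1 had 1.11 and 1.43 RPKM, a log2 ratio of 0.37 (0.14 to 0.59), from about 317 and 336 reads, the thinnest count of the 10 genes. Both were higher in G34R cells by more than counting error, and 53.2% and 50.2% of genes of like abundance lay as far out. Rnf2 held 95.3% of their sum in WT cells and 94.6% in G34R cells, 20.1-fold and 17.4-fold the level of Ring1. With coding transcript lengths these ratios were 12.6 and 10.9, so Rnf2 remained far above Ring1.

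The closest 50-base coding stretch of the RING genes shows how far they have diverged. It is given 5′ to 3′ on the minus strand of mm9, from exon 3 of 7 in both, at chr1:153324026-153324075 for Rnf2 and chr17:34160262-34160311 for Ring1, with differing bases in capitals.
Rnf2: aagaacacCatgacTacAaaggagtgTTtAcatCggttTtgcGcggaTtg
Ring1: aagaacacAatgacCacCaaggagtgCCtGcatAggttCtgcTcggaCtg
They differ at 10 bases, and no identical run is longer than 8 bases. Of the 50-base stretches in the exons of Rnf2 and of Ring1, 0 recur elsewhere in the genome.

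PCGF6 forms a variant PRC1 that is found at germline genes and is recruited by MGA, MAX and E2F6. Its gene lies on the minus strand at chr19:47108109-47125380 (ENSMUSG00000025050). Pcgf6 had 10.14 RPKM in WT and 9.56 RPKM in G34R cells, which is a log2 ratio of -0.08 (counting interval -0.16 to -0.01). Of genes of like abundance, 83.4% lay as far out. It was the highest of the 6 PCGF genes in both libraries, with 35.9% of their sum in WT cells (28.26 RPKM) and 31.1% in G34R cells (30.71 RPKM). Pcgf2, a subunit of canonical PRC1, had 4.43 and 5.88 RPKM, and Bmi1, its paralogue, had 1.41 and 0.96 RPKM. Pcgf6 was 2.29-fold above Pcgf2 in WT cells and 1.63-fold above it in G34R cells. The other PCGF genes were Pcgf1 (3.47 and 4.87 RPKM), Pcgf3 (5.59 and 5.64 RPKM) and Pcgf5 (3.22 and 3.80 RPKM). The partners of PCGF6 were at 16.14 and 11.81 RPKM for Mga, 13.98 and 10.94 RPKM for Max, 4.27 and 4.29 RPKM for E2f6 and 21.07 and 14.66 RPKM for L3mbtl2, a further subunit of the same complex. These 4 partners were chosen for naming after their values were seen.

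CBX7 is the main chromobox protein of canonical PRC1 in undifferentiated ES cells, and others such as CBX2 are known to gain on it in differentiation. Its gene lies on the minus strand at chr15:79746237-79801549 (ENSMUSG00000053411). Cbx7 had 23.43 RPKM in WT and 20.76 RPKM in G34R cells, which is a log2 ratio of -0.17 (counting interval -0.22 to -0.13). Of genes of like abundance, 73.2% lay as far out. Cbx7 held 70.8% of the summed RPKM of 4 Polycomb chromobox genes (Cbx2, Cbx6, Cbx7 and Cbx8) in WT and 65.0% in G34R cells. Cbx2 had 4.94 and 5.66 RPKM, and Cbx6 had 4.49 and 5.41 RPKM, so both were higher in G34R cells. Cbx8 (0.25 and 0.10 RPKM) was far lower in both libraries. The sum of the 4 genes was almost the same, at 33.11 and 31.93 RPKM. Cbx7 was 4.74-fold above Cbx2 in WT cells and 3.67-fold above it in G34R cells.

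Canonical PRC1 also holds a polyhomeotic subunit, whose SAM domain links complexes into chains. Phc1 had 50.92 RPKM in WT and 43.14 RPKM in G34R cells, and Phc2 had 1.92 and 3.64 RPKM (log2 ratio 0.92). Phc3 had 0.82 and 0.95 RPKM. Phc1 thus held 94.9% of their sum in WT and 90.4% in G34R cells, and Phc2 3.58% and 7.63%. Rybp, which replaces the chromobox protein in variant PRC1, had 11.05 and 12.93 RPKM, and its paralogue Yaf2 1.90 and 1.92 RPKM.

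In each of the EZH, RING, PCGF, CBX, PHC and Polycomb-like groups the gene with the highest RPKM in WT cells was also the highest in G34R cells. The leading gene held a larger share in G34R cells for EZH, as did Rybp beside Yaf2 (85.3% and 87.1%). By deposited RPKM so did Rbbp7 beside Rbbp4, by a small margin. With coding transcript lengths Rbbp4 led instead, with 50.9% in WT and 50.8% in G34R cells. In the RING, PCGF, CBX, PHC and Polycomb-like groups the leading gene held a smaller share in G34R cells. The groups are few and their genes were chosen with these data known, so the direction is given as a description.

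**Figure D4:**
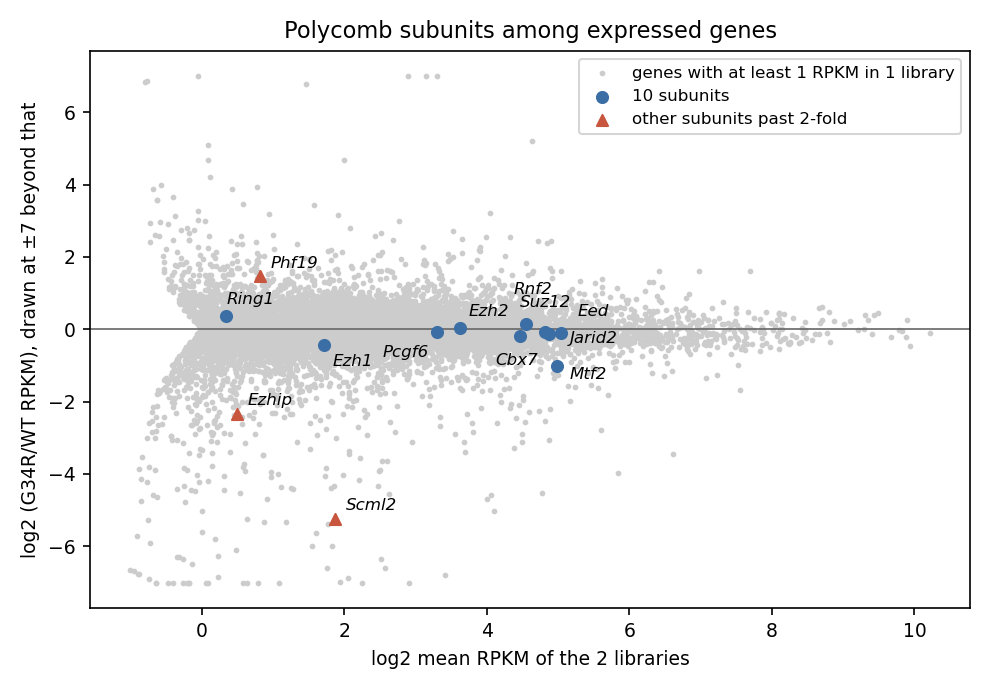
log2 (G34R/WT RPKM) against log2 of the mean RPKM for the 10728 genes with at least 1 RPKM in 1 library (grey), with the 10 subunits (circles) and the other PRC1 and PRC2 subunits past 2-fold (triangles). Mtf2 lies below the main body of the cloud at its abundance, and the other 9 subunits lie within it.

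Beyond the 10 genes, 9 further genes of PRC2 subunits and regulators were listed, of which 8 passed 1 RPKM in 1 library. Of these 4 were lower and 4 higher in G34R cells, beside 54.8% and 45% of the background. Their median log2 ratio was -0.03. Past 2-fold were Phf19, which was higher, and Ezhip, which was lower at 2.36 RPKM in WT and 0.47 RPKM in G34R cells (log2 ratio -2.33, counting interval -2.70 to -1.97). Of the background genes, 6.42% were more than 2-fold lower and 4.09% more than 2-fold higher. Phf1 and Phf19 reached 1 RPKM only in G34R cells and Ezhip only in WT cells. The filter thus partly sets the direction of such genes, and with it these counts. EZHIP is an inhibitor of PRC2 that is otherwise expressed mainly in germ cells. Its gene lies on chromosome X (mm9, chrX:5658337-5660537), where 16% of 363 background genes were more than 2-fold lower, beside 6.42% of the whole background. The 2 background genes within 500 kb of it, Nudt11 and Shroom4, had log2 ratios of -0.51 and 0.02.

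Of 27 further PRC1 genes 23 passed, of which 11 were lower and 12 higher, beside 54.8% and 45% of the background. Their median log2 ratio was 0.01. A single gene was past 2-fold, Scml2, where 6.42% of the background was more than 2-fold lower and 4.09% more than 2-fold higher. Its SAM-domain protein associates with PRC1 and is best known from germ cells. Scml2 had 7.14 RPKM in WT and 0.19 RPKM in G34R cells, from about 3853 and 85 reads, a log2 ratio of -5.23 (counting interval -5.55 to -4.91). Of genes of like abundance, 0.8% lay as far out. Scml2 reached 1 RPKM in WT cells only. Scml2 too lies on chromosome X (mm9, chrX:157555125-157696145). None of the 10 subunits lies on chromosome X or Y, as they are spread over 9 autosomes.

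Enzymes that remove the Polycomb marks were listed as well with the ASXL partners of 1 of them, 9 genes of which 8 passed. They comprised 6 that were lower and 2 that were higher in G34R cells, beside 54.8% and 45% of the background. Their median log2 ratio was -0.26. Kdm6b, which encodes a demethylase of lysine 27 of histone H3, had 2.80 and 5.22 RPKM (log2 ratio 0.90), and its paralogue Kdm6a had 5.21 and 4.45 RPKM. Uty, the Y-linked relative of Kdm6a, had 2.85 RPKM in WT and 0.19 RPKM in G34R cells, the only gene of this list past 2-fold. Of the background, 6.42% was more than 2-fold lower and 4.09% more than 2-fold higher. Uty passed the filter through the WT library only. Other genes of chromosome Y had like values, as Ddx3y had 10.56 and 0.70 RPKM and Eif2s3y 7.69 and 0.70 RPKM (both named after their values were seen). Bap1, the catalytic subunit of the main deubiquitinase of H2A, had 18.89 and 22.14 RPKM. Kdm6a, Kdm6b and Bap1 were likewise chosen after their values were seen.

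**Figure D5:**
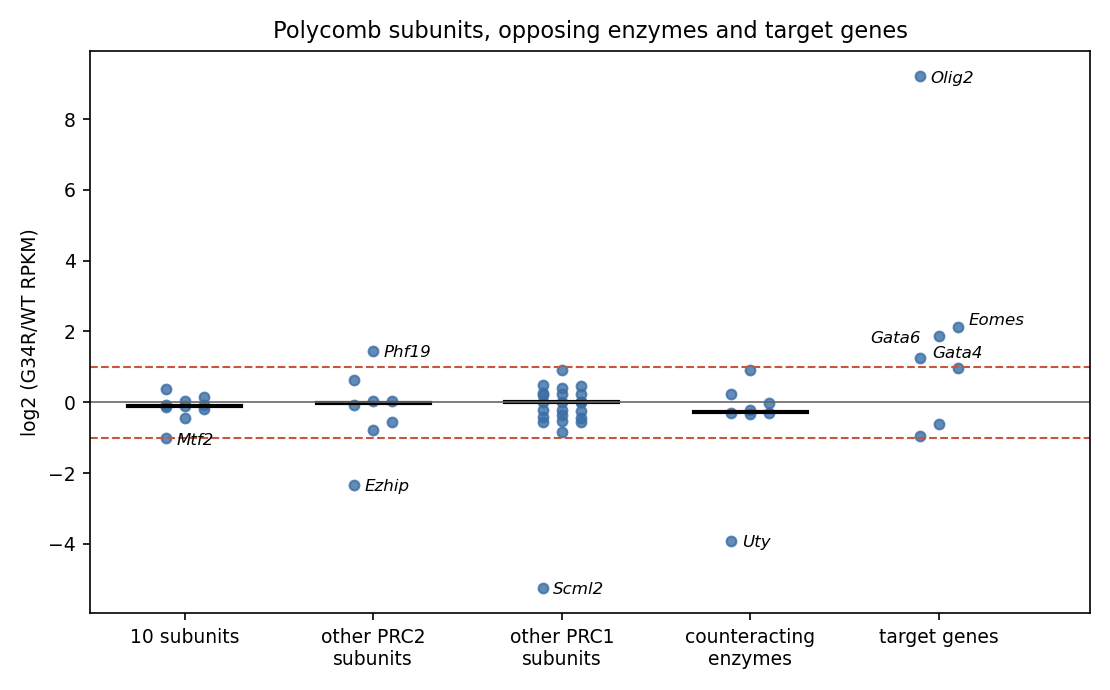
log2 (G34R/WT RPKM) of the genes with at least 1 RPKM in 1 library in each list, with the median as a bar (not drawn for target genes, most of which passed through 1 library only) and 2-fold as dashed lines. The subunit lists centre near 0, with Mtf2, Ezhip and Scml2 below -1 and Phf19 above 1. Of these, Ezhip, Scml2 and Phf19 reached 1 RPKM in 1 library only.

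Genes that Polycomb complexes are known to occupy in ES cells were taken as a further list of 32, of which 31 had a probe. In both libraries 24 of these 31 were below 1 RPKM, and 3 were listed at 0 in WT cells and 5 in G34R cells. The highest in G34R cells was Olig2, a regulator of the oligodendrocyte and motor neuron lineages, which was near 0 in WT cells, with 0.03 RPKM in WT cells (about 6 reads) and 17.71 RPKM in G34R cells (about 3131 reads). Neurod1 had 2.01 and 3.91 RPKM, Eomes 0.43 and 1.88 RPKM, Gata6 0.30 and 1.09 RPKM, and Gata4 0.50 and 1.18 RPKM. The cell cycle inhibitor genes Cdkn2a (2.18 and 1.42 RPKM) and Cdkn2b (1.32 and 0.68 RPKM) were lower in G34R cells. A gene near 0 in 1 library passes the filter only where it is high in the other, so the 7 that passed say little of the list as a whole. The list summed to 9.29 RPKM in WT and 30.55 RPKM in G34R cells, and Olig2 alone made up most of the latter. Gata4, Gata6, Eomes and Olig2 are also among the lineage markers above. No mark or binding of Polycomb proteins was analysed here.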

How the data were processed

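Stranded total RNA libraries of WT and G34R ES cells, 1 each, were read as 50-base single ends. The authors mapped them to mm9 using STAR 2.4.2a, quantitated merged transcripts with strand in Seqmonk and deposited length-corrected RPKM. RPKM is relative to each library's total.

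Values under 0.01 RPKM were set to 0.01 before log2 (G34R/WT RPKM) was taken, and genes needed at least 1 RPKM in 1 library. No test was possible. Depth came from RPKM steps of genes with 1 exon, under 800 bases and above 0 RPKM (382 genes in WT, 350 in G34R). Of these, only genes with fewer than 6 reads at the depth tried had weight. Reads per gene, and the counting intervals drawn from them, are estimates that assume the merged exons of GENCODE M1 transcripts (26030 probes matched) as the length. Sequences and exon numbers came from the mm9 genome with GENCODE M1. Epop and Ezhip were found under E130012A19Rik and AU022751 through RefSeq synonyms, and Sox1 was not analysed here. Of the paralogues, 1 chromobox gene is not reported here and was left out of the chromobox shares. Members, lists and length alternatives were chosen with earlier results of these data known. By rule, all members, every gene of their paralogue and SUZ12-binding groups, genes past 2-fold in the lists of further subunits, opposing enzymes and targets, and the 5 highest target genes are named. Cell type markers and genes named for their position or as partners were chosen after their values were seen. Alternatives were other pseudocounts, filters, folds, scalings and lengths. Scripts were tested on simulated data. Python 3.11.15, NumPy 2.4.6, pandas 2.3.3, SciPy 1.17.1 and matplotlib 3.10.9 were used.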

Additional observations from a re-analysis of the deposited data

How the results depend on the processing

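With 1 library per line, no replicate could be left out and no interval between cultures could be had. For the same reason no paired analysis was possible, and no result comes from a test. Among the 153 alternative values, a reversal was looked for only in the log2 ratio of Mtf2, which stayed negative in every setting. The 50 alternative log2 ratios of the 10 subunits included 1 with the other sign, Ezh2 at -0.04 with matched upper quartiles, and 32 stayed within the counting interval. The median log2 ratio of the subunits was -0.0383 after centring on the median gene and -0.159 with matched upper quartiles. The number of subunits past 2-fold was 0 rather than 1 after adding 1 to each RPKM, after scaling to the same sum and after centring, the latter scalings being chosen after seeing the data. Over all genes, 689 were past 2-fold lower and 439 higher. These counts became 1509 and 1215 at 1.5-fold, 356 and 196 with 1 added, 1289 and 774 with at least 0.25 RPKM, 2877 and 1445 with no filter, and 239 and 181 with at least 5 RPKM. For the further PRC2 genes the count of 2 became 4 at 1.5-fold and 1 with 1 added. For the further PRC1 genes the count of 1 became 3 at 1.5-fold and 2 with at least 0.25 RPKM, which adds Cbx8. The opposing enzymes went from 1 to 2 at 1.5-fold, and the target genes from 4 to 7 at 1.5-fold and to 2 with 1 added. With 1 added, Mtf2 held 92.3% and 79.5% of the Polycomb-like RPKM in WT and G34R cells. The causes of these moves were not tested beyond the settings' own construction.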
